A study of Homo sapiens with 12 samples.

Results

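The 10 genes described here encode sensors of foreign or misplaced nucleic acid, the adaptor that relays the RNA signal, and enzymes that restrain the sensing of the cell's own nucleic acid. They were chosen by symbol (RIGI, IFIH1, DHX58, MAVS, CGAS, IFI16, TLR3, EIF2AK2, ADAR and TREX1), and all 10 were among the 16383 genes of the deposited table. Their RNA was measured in the wild-type IMR90 line, established human fibroblasts from lung, in 4 groups of 3 libraries. Proliferating cells had no treatment. The other groups had received 20 Gy of ionizing radiation over 10 min, which makes fibroblasts senescent, followed by DMSO, by 2 µM palbociclib or by 2 µM ruxolitinib. Palbociclib inhibits the cell cycle kinases CDK4 and CDK6, and ruxolitinib inhibits the Janus kinases (JAK). The inhibitors were given on days 4, 6, 8 and 10 after irradiation, and the irradiated groups were harvested on day 11. The labels give no irradiated group without a vehicle and no proliferating group with an inhibitor, and every group is the same cell line. They do not say whether replicates were separate cultures, so p-values measure the spread between these libraries, which may be technical.

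RIG-I (RIGI) and MDA5 (IFIH1) are helicases that bind double-stranded RNA in the cytosol and signal through MAVS on mitochondria, while LGP2 (DHX58) is a related helicase without the signalling domain. TLR3 detects double-stranded RNA in endosomes, cGAS (CGAS) makes a second messenger when it binds DNA, and IFI16 binds DNA. PKR (EIF2AK2) halts translation when it binds double-stranded RNA. ADAR edits self RNA and the exonuclease TREX1 removes DNA, and loss of either lets self nucleic acid trigger the sensors. Type I interferon signals through JAK1 and TYK2 to a complex of STAT factors and IRF9, which binds the interferon-stimulated response element in target promoters. By textbook accounts the sensors, PKR and both enzymes can be induced by interferon to differing degrees, and MAVS is not counted among the induced genes.

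RefSeq promoter sequences (GRCh38.p14, 250 bases before to 50 after the start site) were matched for 8 of the 10 genes. DHX58 and CGAS had no entry. The stretches below hold the core of the interferon-stimulated response element (GAAA, any 2 bases, GAAA), searched on both strands. They are shown for every gene in which a match was found. These 3 genes rose after irradiation, as did RIGI and ADAR, which held no match. Capitals mark the matches, and each line runs 5′ to 3′ on the gene's strand. The IFIH1 stretch lies at chr2:162318675-162318868 on the minus strand, that of TLR3 at chr4:186069127-186069165 on the plus strand and that of EIF2AK2 at chr2:37156971-37157011 on the minus strand.
IFIH1: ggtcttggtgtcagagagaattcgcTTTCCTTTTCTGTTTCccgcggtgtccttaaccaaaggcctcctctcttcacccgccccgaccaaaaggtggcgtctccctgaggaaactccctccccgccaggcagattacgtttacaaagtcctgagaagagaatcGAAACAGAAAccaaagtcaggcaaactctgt
TLR3: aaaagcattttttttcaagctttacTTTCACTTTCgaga
EIF2AK2: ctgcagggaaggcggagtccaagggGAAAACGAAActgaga

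IFIH1 held 3 matches. With the first transcribed base as position 1, its 2 upstream matches lie on the opposite strand and overlap, from -159 to -150 and from -153 to -144, and the other runs from -21 to -12. TLR3 held 1 match on the opposite strand, from -4 to 6. EIF2AK2 held 1 match on its own strand, from -6 to 4. The promoters of RIGI, MAVS, IFI16, ADAR and TREX1 held none within this window. Other spacings between the GAAA blocks were not searched, and the RIGI window holds gaaacgaaa, with 1 base between them. Only 1 window was searched per gene. That of IFI16 (chr1:159008741-159009040) lies inside the gene span given below, so the outermost start was not searched. That of ADAR (chr1:154627948-154628247) lies at the outer end of the gene. Any other start sites of these genes were not searched. The motif was present in 1255 of 35116 promoters of the same length (3.57%). The gamma-activated sequence TTCNNNGAA, a palindrome and so counted by position, was present in 7.66% of promoters. Among the 8 it was found only in TLR3, at 2 positions. A match describes letters in the window, and binding was not measured.

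Over the listed genes the libraries held 14106799 to 21762412 reads. All 9 fibroblast markers, among them COL1A1, PDGFRB and THY1, had a mean of at least 10 normalized counts. Of these, 7 were lower and 2 higher after irradiation, beside 39.3% and 33% of all tested genes. Palbociclib against DMSO gave 8 higher and 1 lower, beside 26% and 22.3%. Ruxolitinib against DMSO gave 3 higher and 1 lower, beside 1.1% and 3.42%. The endothelial marker VWF rose after irradiation from 5.04 to 19.1 (adjusted p 0.00212) and was called with neither inhibitor against DMSO, and the epithelial marker EPCAM was called in none of these comparisons. The epithelial marker CDH1 was too scarce to test. It had 0 reads in each proliferating library, 2 to 5 with DMSO, 9 to 17 with palbociclib and 1 to 2 with ruxolitinib. SFTPC and KRT5 had at most 1 read in any library. Of 7 leukocyte markers, LILRA4 was at 0 reads in all 12 libraries, PTPRC was at 10 reads or fewer in each, and the 6 listed ones summed to 2.22 to 8.30 normalized counts in proliferating cells, 37.0 to 50.5 with DMSO, 16.0 to 25.4 with palbociclib and 25.3 to 35.5 with ruxolitinib. CD14 made up most of this sum with DMSO. It rose after irradiation from 4.03 ± 2.64 to 28.2 ± 1.92 (SD, n = 3). The part of leukocytes, endothelial or epithelial cells, or of the shift in fibroblast markers, in the results was not tested. Palbociclib library A120 and proliferating library A126 stood apart from their replicates. Pairs with A120 differed by a chi-square of 13.6 to 25.1 per gene and pairs with A126 by 11.9 to 17.1, against 1.98 to 2.81 between replicates with DMSO or ruxolitinib, 2.95 between the other proliferating libraries and 6.43 between the other palbociclib libraries. If every library were scaled to the same total, the log2 difference of the median gene would shift by 0.23 for DMSO against proliferating cells and by -0.23 for palbociclib against DMSO. With it, the share of called genes that are higher goes from 45.7% to 64% after irradiation, from 53.9% to 15.4% for palbociclib against DMSO and from 56.4% to 15.7% for palbociclib against ruxolitinib. Changes are given on the authors' scaling, and so are the shares of all tested genes set beside them.

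The first comparison asks how irradiated cells given DMSO differ from proliferating cells. RNA of the 3 helicases, TLR3, PKR and ADAR was higher after irradiation, CGAS RNA was lower, and IFI16, MAVS and TREX1 RNA did not pass the test. Differences were tested with limma on log2(normalized count + 1), and calls were made at adjusted p under 0.05. That is 6 of 10 genes higher and 1 lower, beside 33% and 39.3% of the 11242 genes tested (72.4% in either direction), so a call alone is common here. The median log2 difference of the 10 was 0.91, against -0.05 over all tested genes. TLR3 reached the mean of 10 normalized counts needed for testing only through its DMSO libraries, and without it 5 of 9 were higher and the median was 0.67. In bulk RNA, fewer cells that carry a transcript and less of it per cell cannot be told apart.

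RIGI (Entrez gene 23586, chromosome 9, 32455302 to 32526196, GRCh38.p14) was measured at 430.6, 384.8 and 404.7 normalized counts in the proliferating libraries and at 2031, 2227 and 2064 with DMSO. With palbociclib it was at 940.6, 822.1 and 910.5, and with ruxolitinib at 760.0, 771.7 and 751.6. None of these groups overlapped, and the order from high to low was DMSO, palbociclib, ruxolitinib, proliferating. RIGI rose by 2.37 after irradiation (log2, SE 0.07, limma adjusted p 8.54e-14). It shares 43.2% of its annotated exon bases with a longer readthrough gene model on the same strand, so its reads may be split.

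IFIH1 (64135, chromosome 2, 162267074 to 162318684) had 42.5, 37.7 and 48.6 normalized counts in proliferating cells and 380.1, 393.0 and 379.3 with DMSO. The palbociclib libraries held 34.3, 32.8 and 32.0, and the ruxolitinib libraries 43.98, 30.6 and 35.2. The DMSO group stood above the other 3 groups, which lay between 30.6 and 48.6. Among those, every palbociclib library was below every proliferating one, as groups did not overlap for 70.9% of tested genes there. The ruxolitinib libraries overlapped both. The increase after irradiation was 3.14 (SE 0.15, adjusted p 5.09e-11).

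DHX58 (79132, chromosome 17, 42101411 to 42112714) was the scarcest helicase, at 10.4, 3.33 and 7.62 normalized counts in proliferating cells, 75.2, 55.6 and 70.5 with DMSO, 8.85, 15.3 and 17.8 with palbociclib and 13.1, 20.7 and 18.9 with ruxolitinib. The proliferating values rest on 3 to 10 reads. Again the DMSO libraries were all above the rest. DHX58 rose by 3.17 (SE 0.36, adjusted p 1.02e-06), on a scale where the added 1 understates changes from so low a level.

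MAVS (57506, chromosome 20, 3846834 to 3876118), the adaptor of RIG-I and MDA5, was not called higher. It was at 2759, 2757 and 2726 normalized counts in proliferating cells and 2553, 2495 and 2575 with DMSO, groups that did not overlap, as was so for 75.1% of tested genes. The difference of -0.11 (95% confidence interval -0.22 to -0.01) had an adjusted p of 0.051. Its sign rested on the scaling: the difference was 0.117 (adjusted p 0.0461) with every library at the same total. On the authors' scaling it was called lower with a mean of at least 50 (adjusted p 0.0498), without A119 (0.0401), without A120 (0.0275) and without A120 and A126 (0.0311).

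**Figure D1:**
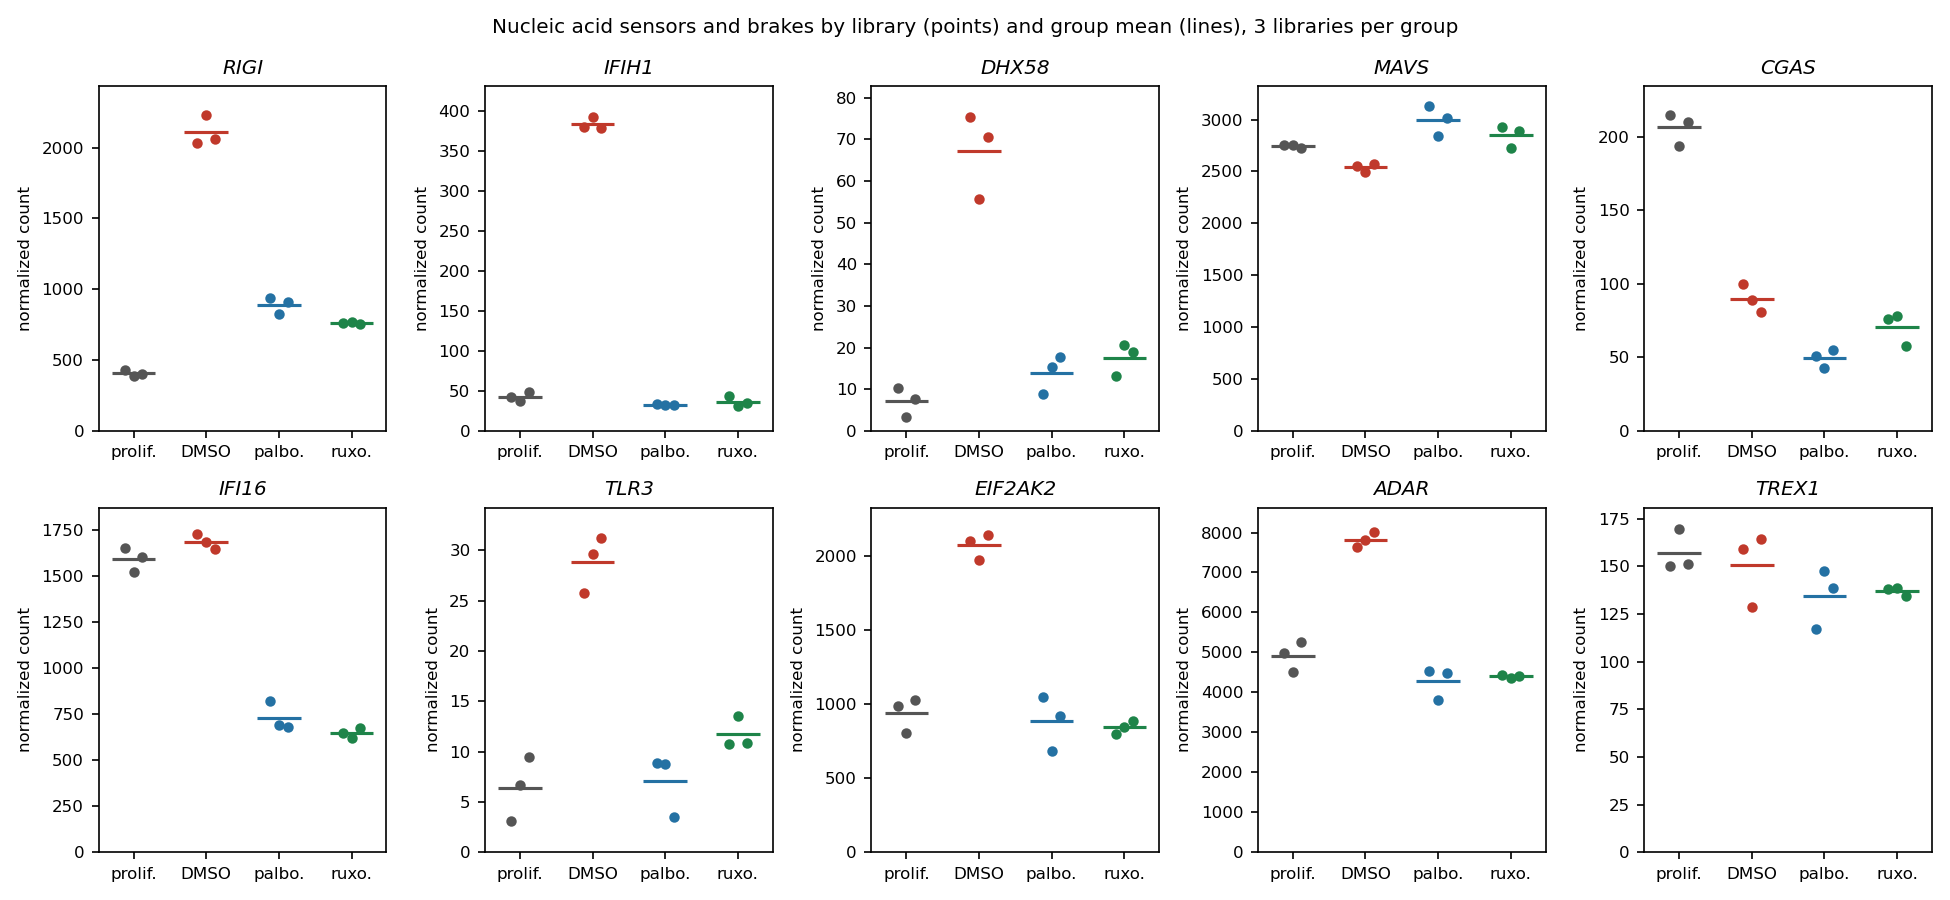
Normalized count (linear axes from 0) of the 10 genes in each of 12 libraries, as points, with the mean of each group of 3 as a line. RIGI, IFIH1, DHX58, TLR3, EIF2AK2 and ADAR are highest in DMSO libraries, CGAS is highest in proliferating cells, IFI16 is low with both inhibitors, and MAVS and TREX1 vary little.

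TLR3 (7098, chromosome 4, 186069156 to 186088073) was found at a few reads per library. It had 3.11, 6.65 and 9.52 normalized counts in proliferating cells, 25.7, 29.6 and 31.2 with DMSO, 8.85, 8.76 and 3.55 with palbociclib and 10.8, 13.5 and 10.8 with ruxolitinib. DMSO libraries held 25 to 27 reads each, above every other library. The mean over the libraries other than DMSO was 8.40, below the minimum of 10, so TLR3 was tested because of the group in which it was high. In a fit with no filter on low values its increase after irradiation was 2.10 (adjusted p 0.000211).

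EIF2AK2, which encodes PKR (5610, chromosome 2, 37099210 to 37156980), had 986.8, 804.1 and 1033 normalized counts in proliferating cells and 2101, 1976 and 2146 with DMSO. It was at 1049, 684.2 and 920.3 with palbociclib and at 802.4, 844.6 and 889.7 with ruxolitinib. Both inhibitor groups overlapped the proliferating libraries, and library A120 gave the lowest palbociclib value. PKR RNA rose by 1.15 after irradiation (SE 0.12, adjusted p 4.95e-07).

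Of the enzymes that act as brakes, ADAR was called and TREX1 was not. ADAR (103, chromosome 1, 154582057 to 154627997) rose from 4991, 4503 and 5251 normalized counts to 7641, 7803 and 8005 with DMSO, a log2 difference of 0.67 (SE 0.07, adjusted p 2.28e-07). ADAR makes a constitutive short form and a longer interferon-inducible form from separate promoters, and a gene count joins them. TREX1 (11277, chromosome 3, 48465830 to 48467645) was at 150.5, 169.7 and 151.4 in proliferating cells and 159.4, 129.0 and 164.2 with DMSO, with a difference of -0.06 (95% confidence interval -0.32 to 0.19, adjusted p 0.638). All of its annotated exon bases (100%) also belong to ATRIP on the same strand, so the TREX1 count is uncertain. The strand setting of the counting is not given in the sources used here.

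Neither DNA sensor was called higher after irradiation. CGAS (115004, chromosome 6, 73423711 to 73452297) went from 214.8, 194.1 and 210.4 normalized counts in proliferating cells to 99.97, 88.8 and 80.9 with DMSO, so every irradiated library was below every proliferating one. It fell by 1.19 (SE 0.15, adjusted p 2.74e-06). IFI16 (3428, chromosome 1, 158999976 to 159055151) was at 1652, 1525 and 1606 in proliferating cells and 1728, 1688 and 1645 with DMSO, groups that overlapped. Its difference of 0.08 (95% confidence interval -0.07 to 0.23, adjusted p 0.308) was called higher under other scalings, at 0.311 (adjusted p 0.000873) with the same total, 0.241 (0.00544) with the same upper quartile and 0.245 (0.00438) with quantile normalization.

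Levels of different genes were set side by side per kilobase of canonical transcript (GENCODE release 44). In proliferating cells the most abundant were ADAR, at 744 ± 57.5 normalized counts per kilobase (SD, n = 3), and IFI16, at 553 ± 22.3. MAVS followed at 234 ± 1.57, then TREX1 at 143 ± 9.89, EIF2AK2 at 94.4 ± 12.1, RIGI at 87.9 ± 4.96 and CGAS at 64.5 ± 3.41. The mean ± SD ranges of EIF2AK2 and RIGI overlapped. IFIH1 (12 ± 1.52), DHX58 (2.74 ± 1.37) and TLR3 (1.07 ± 0.534) were the lowest. With DMSO the level per kilobase was 455 ± 22.6 for RIGI, above MAVS (217 ± 3.50), and 107 ± 2.15 for IFIH1, above CGAS (28.1 ± 2.99). These levels depend on the transcript taken as the length of each gene, which the SDs do not include.

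**Figure D2:**
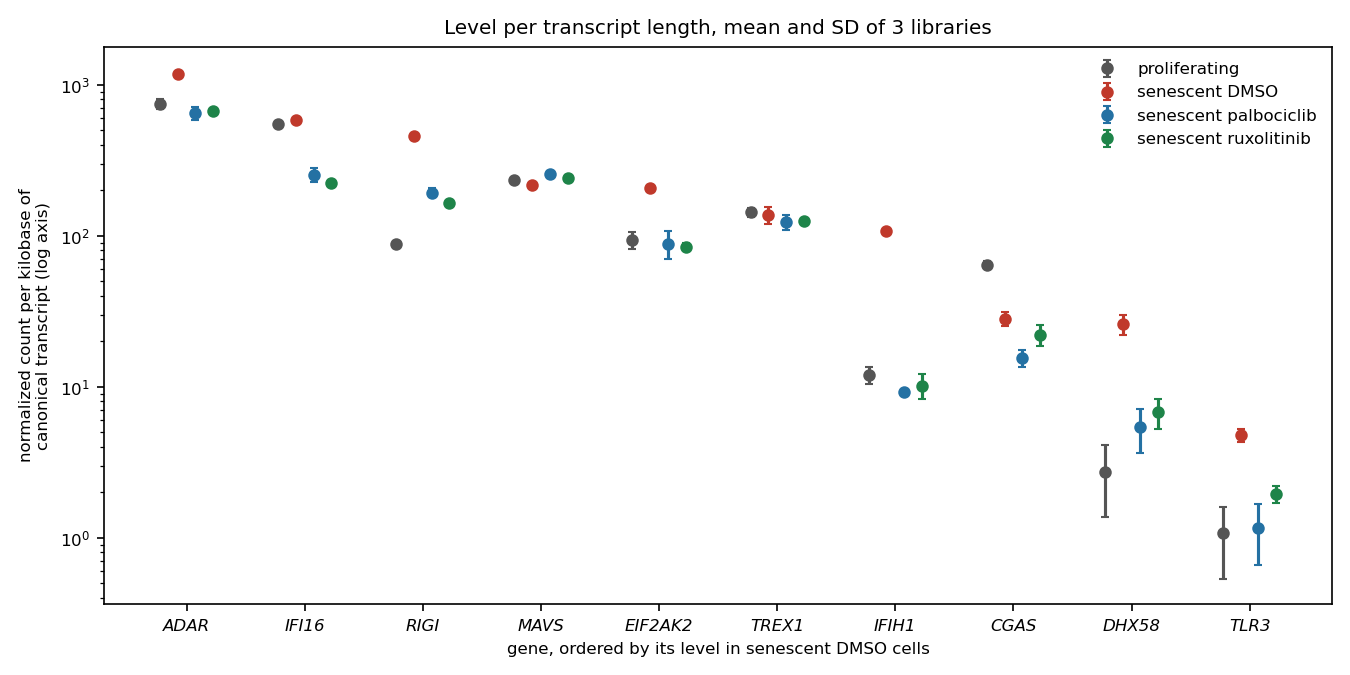
Normalized count per kilobase of canonical transcript (log axis) for the 10 genes, ordered by level in DMSO cells, as the mean of 3 libraries with SD bars. ADAR is highest in every group, IFIH1 moves from 12 in proliferating cells to 107 with DMSO, and TLR3 is lowest throughout.

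The next comparison asks how irradiated cells given the CDK4/6 inhibitor differed from those given DMSO. With palbociclib 8 of the 10 genes were lower than with DMSO and 1, MAVS, was higher, beside 22.3% lower and 26% higher among all tested genes (48.3% in either direction). Groups did not overlap for 9 of the 10, TREX1 being the exception, and for 54.8% of tested genes. Without TLR3, 7 of 9 were lower. The median log2 difference of the 10 was -1.23, against 0.02 over all tested genes. IFIH1 had the largest decrease, by 3.50 (SE 0.15, adjusted p 1.31e-10), from 384.1 ± 7.72 to 33.0 ± 1.18 normalized counts (SD, n = 3). DHX58 fell by 2.23 (adjusted p 0.000134) and TLR3 by 1.97 (adjusted p 0.000928 with no filter on low values), each with few reads.

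RIGI fell by 1.24 (SE 0.07, adjusted p 9.96e-10), to 891.1 ± 61.6. EIF2AK2 fell by 1.25 (SE 0.12) and ADAR by 0.87 (SE 0.07), to 4545, 3814 and 4480 normalized counts. IFI16, which had not passed the test after irradiation, fell by 1.21 (SE 0.07, adjusted p 2.87e-09), to 824.4, 689.6 and 681.3, all below the lowest DMSO library. CGAS, already lower after irradiation, fell by a further 0.85 (SE 0.15, adjusted p 0.000263), to 50.9, 42.7 and 55.1.

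MAVS was measured at 3133, 2842 and 3015 normalized counts with palbociclib. Its increase of 0.24 (SE 0.05, adjusted p 0.00107) depended on the scaling and was 0.0101 (adjusted p 0.877) with the same total and 0.0857 (adjusted p 0.193) with quantile normalization. TREX1, at 117.3, 147.8 and 138.6, differed by -0.16 (95% confidence interval -0.42 to 0.09, adjusted p 0.277). Its difference was -0.388 (adjusted p 0.0156) with the same total and 0.0505 (adjusted p 0.755) with quantile normalization.

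The JAK inhibitor was compared with DMSO in the same way. Ruxolitinib lowered 6 of the 10 genes and raised 0 of them at an adjusted p under 0.05, where 3.42% of tested genes were lower and 1.1% higher (4.52% in either direction). By limma 2 further differences had an unadjusted p under 0.05 in the lower direction (CGAS and TLR3) and 1 in the higher (MAVS), and DESeq2 called MAVS higher while edgeR called 0 higher. The 6 were RIGI, IFIH1, DHX58, IFI16, EIF2AK2 and ADAR. The median log2 difference of the 10 was -1.26, against -0.0028 over all tested genes. Both inhibitor effects are measured against the same DMSO libraries and so are not independent of each other or of the irradiation effect.

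IFIH1 fell by 3.37 with ruxolitinib (SE 0.15, adjusted p 5.54e-10), to 36.6 ± 6.79 normalized counts. RIGI fell by 1.47 (SE 0.07, adjusted p 4.82e-10), to 761.1 ± 10.1. DHX58 fell by 1.89 (SE 0.36, adjusted p 0.0057). IFI16 fell by 1.38 (SE 0.07, adjusted p 1.64e-09), to 649.7, 619.5 and 673.1, EIF2AK2 by 1.29 (SE 0.12, adjusted p 3.92e-06) and ADAR by 0.83 (SE 0.07, adjusted p 5.57e-07), to 4449, 4358 and 4408. Groups did not overlap for 9 of the 10 genes, the 6 called ones with MAVS, CGAS and TLR3, where that held for 31.9% of tested genes.

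The other 4 genes were not called. TLR3 differed by -1.23 (95% confidence interval -2.10 to -0.37, adjusted p 0.114) at 12 to 15 reads per library. It was called on recovered reads by edgeR (adjusted p 0.0225) and DESeq2 (0.0304), with a pseudocount of 5 (0.0416) and when only the 2 groups were fitted (0.00343). Those fits used the same filter, which TLR3 passed only through its DMSO libraries. With no filter on low values TLR3 was not called (-1.23, limma adjusted p 0.121). CGAS, at 76.4, 78.3 and 57.7 normalized counts, differed by -0.35 (95% confidence interval -0.66 to -0.03, adjusted p 0.261). MAVS, at 2932, 2727 and 2894, differed by 0.17 (95% confidence interval 0.06 to 0.27, adjusted p 0.0771). That call changed without library A120 (adjusted p 0.0302), with the same upper quartile (0.0464), in a fit of only the 2 groups (0.00229) and in DESeq2 (0.0379). TREX1, at 138.1, 138.7 and 134.4, differed by -0.13 (95% confidence interval -0.38 to 0.13, adjusted p 0.676).

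**Figure D3:**
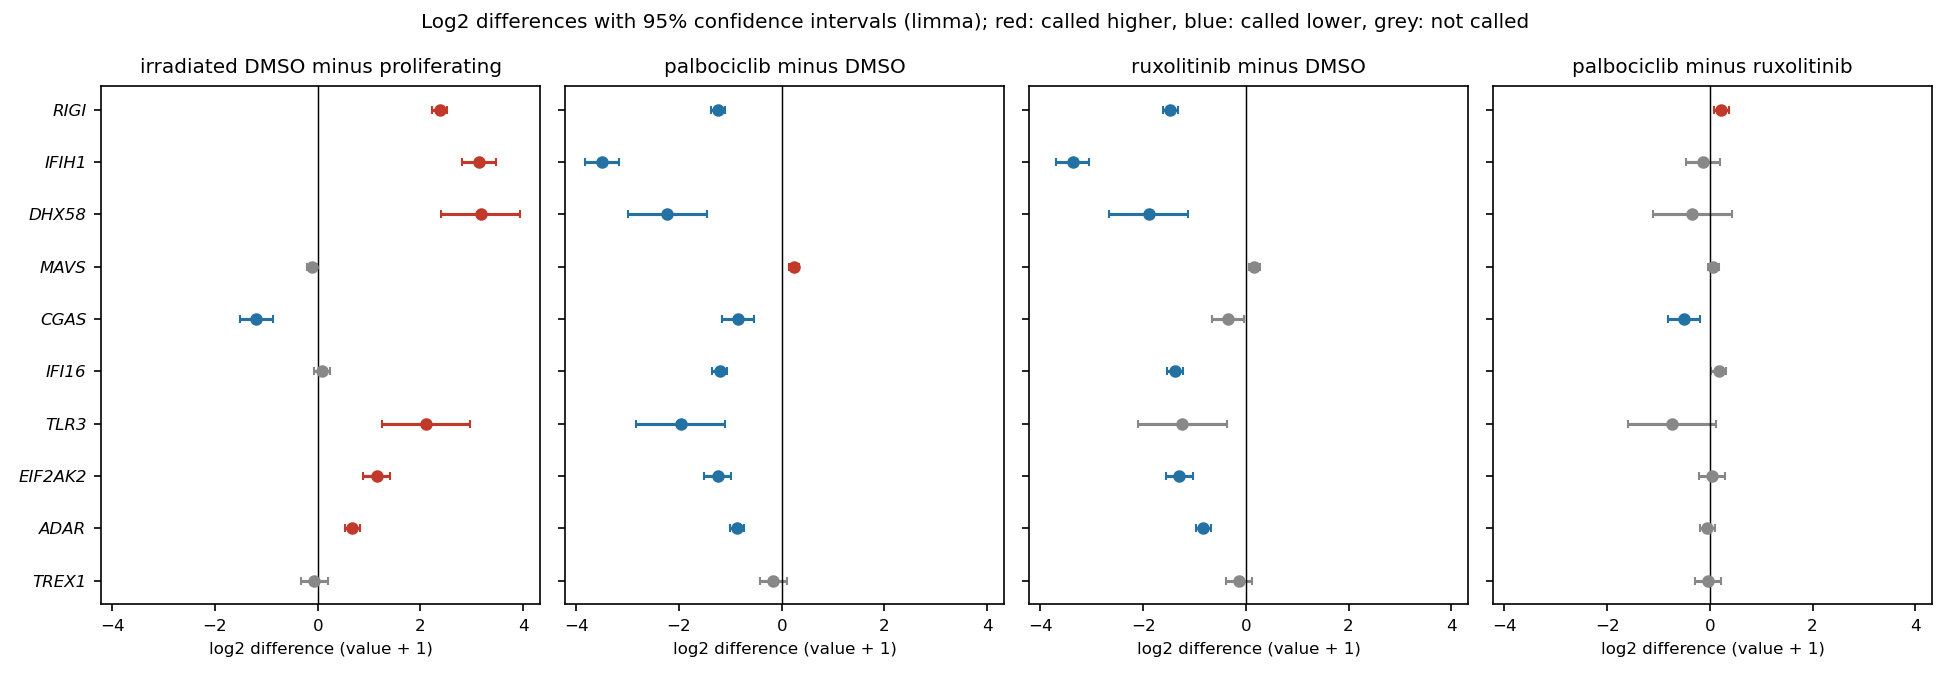
Log2 difference of each of the 10 genes in 4 comparisons, as points with 95% confidence intervals from limma on log2(normalized count + 1), red where called higher, blue where called lower and grey where not called. IFIH1 has the largest decrease with both inhibitors (3.50 and 3.37), and in the direct comparison of the inhibitors only RIGI and CGAS were called.

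Taking the irradiation and ruxolitinib comparisons together, 5 genes were higher after irradiation and lower with the JAK inhibitor. These were RIGI, IFIH1, DHX58, EIF2AK2 and ADAR. The same pair of calls was made for 182 of the 11242 tested genes (1.62%), and both comparisons use the same DMSO libraries. TLR3 rose after irradiation without a call for ruxolitinib in the limma fit. IFI16 was lower with ruxolitinib without a call after irradiation. CGAS was lower after irradiation, and MAVS and TREX1 were called in neither. For CGAS and TREX1 a call for ruxolitinib did not appear under any alternative run.

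The inhibitors were then compared directly. Palbociclib was higher than ruxolitinib for 1 of the 10 genes and lower for 1, beside 22.8% and 17.6% of tested genes (40.4% in either direction). Groups did not overlap for 4 of the 10 (RIGI, CGAS, IFI16 and TLR3) and for 51.8% of tested genes. RIGI was higher with palbociclib by 0.22 (SE 0.07, adjusted p 0.0133), although with every library at the same total the difference was 0.0237 (adjusted p 0.782). CGAS was lower with palbociclib by 0.50 (SE 0.15, adjusted p 0.0141), and this call was lost without library A120 (adjusted p 0.0578), A122 (0.0623) or A123 (0.0666) and with quantile normalization (0.212).

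For the other 8 genes the main test did not separate the inhibitors, and its intervals hold for the authors' scaling. The 95% confidence interval of the difference ran from -0.46 to 0.20 for IFIH1, from -0.19 to 0.10 for ADAR, from -0.22 to 0.30 for EIF2AK2 and from 0.02 to 0.32 for IFI16 (adjusted p 0.0651). It ran from -0.03 to 0.18 for MAVS and from -0.29 to 0.22 for TREX1. For the scarce transcripts it was wide, from -1.11 to 0.43 for DHX58 and from -1.60 to 0.13 for TLR3. IFI16 was called higher with palbociclib without A120 (0.212, adjusted p 0.0333) or A121 (0.220, adjusted p 0.0392). ADAR was called lower with palbociclib with the same total (-0.248, adjusted p 0.00466) and with quantile normalization (-0.221, adjusted p 0.00947), values outside its interval above. MAVS was called lower with the same total (-0.130, adjusted p 0.0429). EIF2AK2 was called higher without A120 and A126 (0.218, adjusted p 0.00694).

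Whether an inhibitor left a gene at the proliferating level was read from the last 2 comparisons. Against proliferating cells, palbociclib-treated cells had 3 of the 10 genes higher and 4 lower, beside 35.2% and 38.6% of tested genes (73.8% in either direction), and groups did not overlap for 6, beside 70.9%. Ruxolitinib-treated cells had 2 higher and 3 lower, beside 32.6% and 39.5% (72.2% in either direction), and groups did not overlap for 7, beside 76.2%. RIGI stayed above proliferating cells with both inhibitors, by 1.13 with palbociclib (adjusted p 3.27e-10) and by 0.90 with ruxolitinib (adjusted p 5.68e-09). DHX58 stayed above by 0.94 (adjusted p 0.0278) and 1.28 (adjusted p 0.00478). For DHX58 with palbociclib the groups overlapped, and the call was lost without library A126 (0.546, adjusted p 0.15), A120 (0.856, 0.0689) or A121 (0.755, 0.109). With quantile normalization DHX58 was not called with ruxolitinib either (0.426, adjusted p 0.288).

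IFI16 was below its proliferating level with both inhibitors, by -1.13 (adjusted p 7.88e-10) with palbociclib and -1.30 (adjusted p 1.70e-10) with ruxolitinib. CGAS was lower too, by -2.04 (adjusted p 4.70e-09) and -1.54 (adjusted p 1.49e-07). EIF2AK2 did not pass the test in either, with intervals of -0.36 to 0.16 and -0.41 to 0.11. With ruxolitinib it was called lower without A120 and A126 (-0.257, limma adjusted p 0.00079). IFIH1 with ruxolitinib did not pass the test (-0.23, adjusted p 0.186) but was called lower with quantile normalization (-0.588, adjusted p 0.00275). IFIH1 was called lower with palbociclib (-0.36, adjusted p 0.0449), ADAR was called lower with both inhibitors (-0.20, adjusted p 0.0135, and -0.16, adjusted p 0.0491) and MAVS was called higher with palbociclib (0.12, adjusted p 0.0331). IFIH1 with palbociclib kept its call in 10 of 25 alternatives and lost it in edgeR (adjusted p 0.0888) and DESeq2 (0.15). ADAR kept it in 20 of 25 with palbociclib and 7 of 25 with ruxolitinib, where the sign turned in 3, and MAVS kept it in 19 of 25. With ruxolitinib MAVS was called higher by edgeR (adjusted p 0.0404), DESeq2 (0.0414) and under all 3 other scalings. TREX1 and TLR3 were called in neither, and TLR3 had an interval of 0.01 to 1.73 with ruxolitinib (adjusted p 0.0651). TLR3 was called higher there with the same total (adjusted p 0.0268) or upper quartile (0.0312), without a variance trend (0.0459) and without A127 (0.0238) or A121 (0.0407).

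Likeness between genes was described as the root-mean-square difference of log2 values over the 12 libraries, each gene centred on its own mean. Nearest to RIGI were SHFL (0.194), SP110 (0.199) and AGT (0.245). For IFIH1 they were EPSTI1 (0.427), DDX60 (0.443) and USP18 (0.503), and for EIF2AK2 SAMHD1 (0.164), UBA7 (0.190) and RNF213 (0.198). DHX58 was nearest to IL13RA2 (0.437), RIGI (0.541) and SAMD9 (0.549), and TLR3 to PTGS2 (0.445), TMCC3 (0.454) and LGALS9 (0.455). ADAR was nearest to LAMA4 (0.114), TRIM25 (0.119) and MYD88 (0.121).

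IFI16 was nearest to NLRC5 (0.235), GBP1 (0.242) and C1R (0.245). CGAS was nearest to NAV2 (0.155), CEP85 (0.168) and DCLRE1A (0.173), which were all highest in proliferating cells, as CGAS was. Genes that vary little are close to many others by construction. This applies to MAVS, nearest to ATRX (0.0530), DNAJC21 (0.0578) and GLYR1 (0.0588), and to TREX1, nearest to JUN (0.0917), HOXB6 (0.0929) and AKAP8 (0.0934). Among the 10 themselves the closest pairs were MAVS with TREX1 (0.210) and EIF2AK2 with ADAR (0.215).

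The wider pathway was described from lists, and each count is to be read against the share of all tested genes called. That was 33% higher and 39.3% lower after irradiation, 26% higher and 22.3% lower with palbociclib, and 1.1% higher and 3.42% lower with ruxolitinib. Of 10 tested genes for other RNA sensors and effectors, 8 were higher after irradiation and 0 lower, with a median of 2.01, and 8 were lower with palbociclib (median -3.32) and 8 with ruxolitinib (median -2.06). OAS1 reached the minimum mean only through its DMSO libraries, and without it the counts were 7 of 9 in each comparison, with medians of 2.01, -2.79 and -1.49. IFIT1, which binds RNA without a host cap, was at 61.1 ± 15.2 normalized counts in proliferating cells and at 3453 ± 112 with DMSO. The palbociclib group had 221.8 ± 65.9 and the ruxolitinib group 175.3 ± 7.85 (SD, n = 3). OASL, a catalytically inactive relative of the 2′,5′-oligoadenylate synthetases, was at 2.04 ± 1.01 (1 to 3 reads), 117.1 ± 9.49, 7.28 ± 1.76 and 53.3 ± 2.32, so it was lower with palbociclib than with ruxolitinib (difference -2.74, adjusted p 2.13e-06). In that comparison 5 of the 10 genes were higher with palbociclib and 1, OASL, was lower, beside 22.8% and 17.6% of tested genes. Without OAS1 the counts were 4 and 1 of 9.

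Of 6 tested genes for other DNA sensors, 1 was higher after irradiation and 4 were lower, with a median of -0.88 against -0.05 over all tested genes. In either direction 72.4% of all tested genes were called. MRE11, a nuclease of double-strand break repair, fell by 1.36 (adjusted p 2.32e-09), and PRKDC, XRCC5 and XRCC6, the subunits of DNA-dependent protein kinase, fell by 1.13, 0.99 and 0.77. With ruxolitinib 0 of the 6 were called by limma, and 0 had an unadjusted p under 0.05. With palbociclib 1 was higher (DDX41, a helicase, by 0.22).

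Of 11 tested cofactors and ubiquitin enzymes of the RIG-I-like receptors, 4 were higher and 5 lower after irradiation, shares near those of all tested genes. TRIM25, a ubiquitin ligase of the RIG-I pathway, had 1487 ± 46.2 normalized counts in proliferating cells and 2671 ± 84.0 with DMSO. It fell to 1484 ± 37.8 under palbociclib and to 1327 ± 26.1 under ruxolitinib, the only gene of this list called lower with ruxolitinib (-1.01, adjusted p 1.07e-09). PRKRA, an activator of PKR, fell after irradiation by 0.66 (adjusted p 2.29e-07) and was called with neither inhibitor. TRAF2, an adaptor ubiquitin ligase, fell by 1.17 after irradiation, and TRADD, a death-domain adaptor, rose by 0.90.

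Downstream of the sensors, 3 of 9 tested genes were higher and 2 lower after irradiation, against 33% and 39.3% of all tested genes. The kinases TBK1 and IKBKE and the factor IRF3, which pass the signal from MAVS to the interferon genes, were not called after irradiation (0.15, 0.04 and -0.16). These differences are smaller in size than the shift of 0.23 that a common total would bring, and these genes were not refitted under other scalings. With palbociclib TBK1 fell by 0.27 (adjusted p 0.0146) and IKBKE by 0.36 (adjusted p 0.0023). IRAK1, a kinase that acts below Toll-like receptors, fell by 0.76 after irradiation (adjusted p 2.21e-09). MYD88, an adaptor of other Toll-like receptors, rose by 0.53 after irradiation (adjusted p 1.27e-06) and fell by 0.63 with palbociclib and 0.81 with ruxolitinib.

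Of 19 other brakes tested, 8 were higher and 6 lower after irradiation, beside 33% and 39.3% of all tested genes (72.4% in either direction). With palbociclib 3 were higher and 8 lower, beside 26% and 22.3% (48.3% in either direction). The median difference with palbociclib was -0.162, against 0.0185 over all tested genes. With ruxolitinib limma called 0 higher, also at an unadjusted p under 0.05, and 5 lower, beside 3.42% of all tested genes. USP18, which restrains interferon receptor signalling, rose by 2.67 after irradiation and fell by 2.40 with palbociclib and 2.82 with ruxolitinib. SAMHD1, which depletes nucleotides and limits DNA sensing, rose by 1.19 (adjusted p 4.28e-09) and fell by 1.11 and 1.41. RNASEH2A and RNASEH2B, subunits of the ribonuclease that removes RNA from DNA, fell by 2.38 and 1.24 after irradiation. ENPP1, which degrades the cGAS product, fell by 1.95 after irradiation and by a further 0.95 with palbociclib (adjusted p 7.37e-06), with a ruxolitinib difference of -0.005 (adjusted p 0.991). ADARB1, the other catalytically active RNA-editing deaminase, fell by 1.53 after irradiation, where ADAR rose.

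PKR belongs to a family of kinases that phosphorylate eIF2 alpha. Of the others, EIF2AK3 rose by 0.63 after irradiation (adjusted p 2.77e-06) and was called with neither inhibitor against DMSO. EIF2AK1 was not called after irradiation (-0.10, adjusted p 0.0619) and rose by 0.25 with palbociclib (adjusted p 0.00037). Genes of these lists were not refitted under other scalings, and the palbociclib differences of EIF2AK1 and DDX41 are close in size to the shift of -0.23 that a common total would bring. EIF2AK4 and STING1 were not analysed here.

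**Figure D4:**
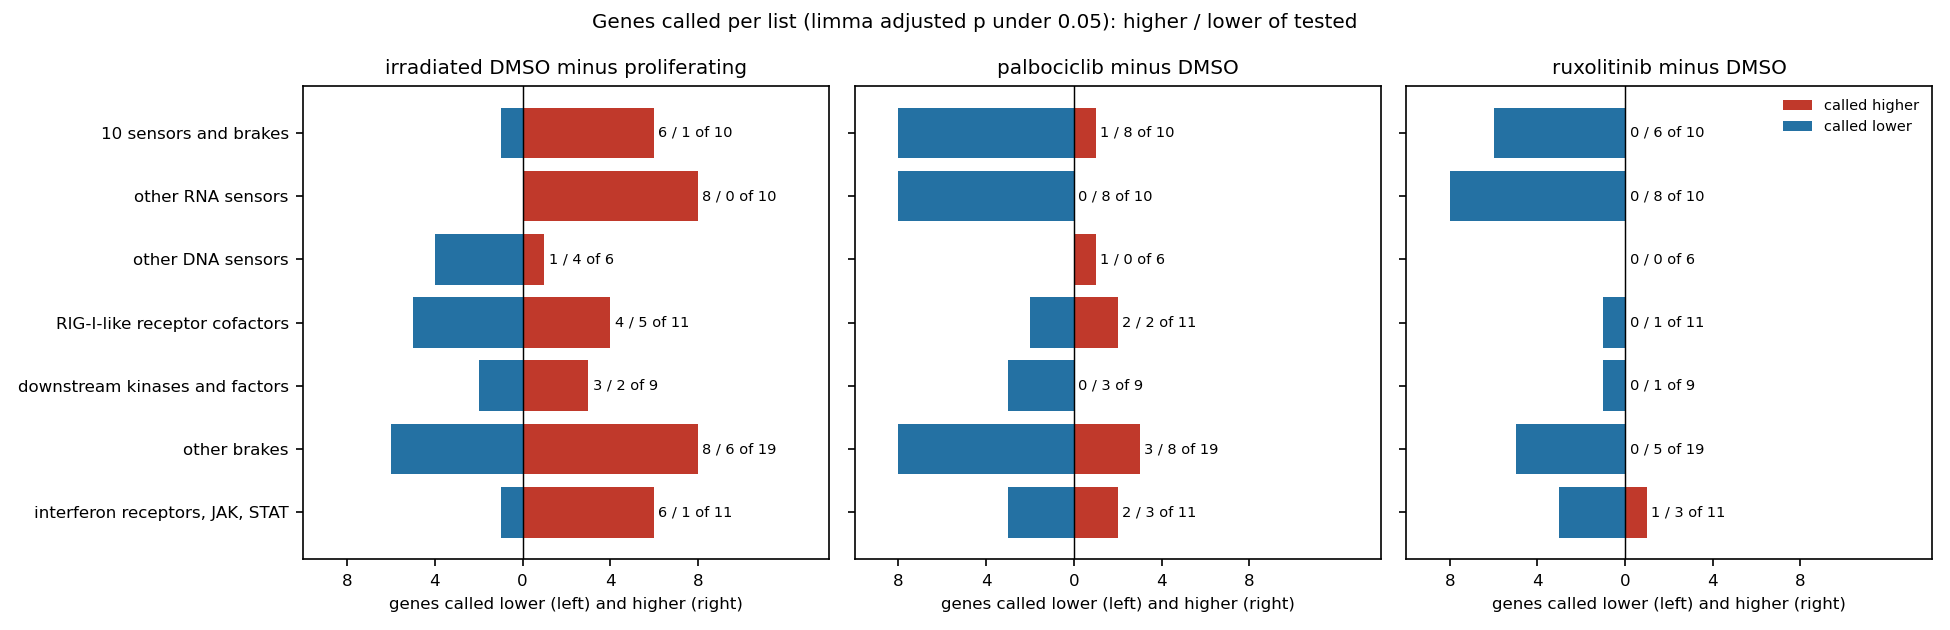
Number of genes called higher (red, right) and lower (blue, left) by limma at an adjusted p under 0.05 in the 10 genes and 6 related lists, for 3 comparisons; each bar gives higher / lower of tested. Other RNA sensors show 8 / 0 of 10 after irradiation and 0 / 8 of 10 with each inhibitor, and other DNA sensors show 1 / 4 of 6 after irradiation and 0 / 0 of 6 with ruxolitinib.

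Interferon transcripts themselves were at the limit of detection. IFNB1, the first interferon made after sensing in fibroblasts, had 0 reads in every proliferating library, 3 in each DMSO library, 0, 1 and 0 with palbociclib and 2, 3 and 0 with ruxolitinib, so no fold is given. IFNA1, whose reads can be shared with near-identical copies, had 0 to 5 reads in proliferating cells, 8 to 15 with DMSO, 7 to 13 with palbociclib and 13 to 20 with ruxolitinib. Neither reached the mean of 10 normalized counts needed for testing. Differences in interferon RNA were therefore not tested at this depth.

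Interferon receptors, JAK kinases and STAT factors were abundant enough to test. Of 11 such genes, 6 were higher and 1 lower after irradiation, beside 33% and 39.3% of all tested genes. STAT2 rose by 1.47 (adjusted p 1.27e-10) and IRF9 by 2.13 (adjusted p 1.23e-11). With palbociclib they fell by 0.50 and 1.60, and with ruxolitinib by 0.66 and 2.36. IRF9 was higher with palbociclib than with ruxolitinib by 0.76 (adjusted p 1.12e-05). IFNAR1 was higher with both inhibitors than with DMSO, by 0.44 (adjusted p 1.21e-05) with palbociclib and 0.25 (adjusted p 0.0188) with ruxolitinib, while JAK2, TYK2 and IFNAR2 were called in none of these 3 comparisons.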

How the data were processed

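Poly(A) RNA from 12 IMR90 samples was sequenced. Normalized counts, a signal never below 0, were deposited in one table for all libraries. The submitters' processing notes name Trimmomatic 0.38.1, HISAT2 2.2.1, featureCounts 2.0.3 and DESeq2 2.11.40.8, and the builds hg38 and GRCh38. The annotation and strand setting are not given in the sources used here. All 160380 of 160380 values above 0 (100%) were whole multiples of one read's worth per library, at a tolerance of 0.01. In library A116 a read is worth 0.990, close to 1. Genes above Entrez number 140467 were not analysed here. Columns carry a group and a library number but no replicate number.

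From these values, log2(normalized count + 1) was fitted with limma 3.58.1 in R 4.3.3, with 4 group means over all 12 libraries and a variance trend. Genes with a mean of at least 10 (11242) were tested with Benjamini-Hochberg adjustment, and intervals cover 95%. Alternatives were pseudocounts of 0.1 and 5, no filter or a mean of 50, 3 scalings, no trend, fits of 2 groups, an adjusted p under 0.01, each library left out, and edgeR 4.0.16 and DESeq2 1.42.0 on recovered reads. Leaving out A120 and A126 together was added after seeing the data. Scripts were tested on simulated data.

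The 10 genes, the lists and the naming rule were chosen with earlier results of these data known. All 10 genes are named. From each list up to 4 genes are described by the size of their change after irradiation, and PRKRA, DDX41, TBK1, IKBKE, IRF3, SAMHD1, RNASEH2B, EIF2AK1, IFNAR1, IFNAR2, JAK2 and TYK2 were chosen outside this rule after their values were seen. Each gene has its 3 nearest profiles. Some genes of the lists are not reported here by name.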

Additional observations from a re-analysis of the deposited data

Results flagged for a closer look

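For 2 of the 10 genes the effects of the inhibitors differed in a direct test, beside 40.4% of all tested genes. RIGI was higher with palbociclib than with ruxolitinib by 0.2249 on the log2 scale (limma adjusted p 0.0133), and all 3 palbociclib libraries were above all 3 ruxolitinib libraries. CGAS was lower with palbociclib by -0.5013 (adjusted p 0.0141), again without overlap. With every library at the same total the RIGI difference was 0.0237 (limma adjusted p 0.782). The CGAS call was lost without library A120, A122 or A123 and with quantile normalization. Groups did not overlap for 51.8% of tested genes in this comparison. With 3 libraries per group, single libraries were not tested as outliers.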

How the results depend on the processing

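The decreases of RIGI, IFIH1, DHX58, IFI16, EIF2AK2 and ADAR with both inhibitors, and the increases of RIGI, IFIH1, DHX58, TLR3, EIF2AK2 and ADAR after irradiation, kept direction and call under every alternative in which the gene was tested. DHX58 and TLR3 fall below a mean of 50 and were not tested there. Over all 10 genes and 6 comparisons, 1357 of 1488 alternative values kept direction and call. No paired analysis was possible because the columns carry no replicate number.

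Counts of the 10 genes changed as follows, and the cause was not tested where none is given. Between DMSO and proliferating cells 1 gene was lower, against 2 with a mean of at least 50 (fewer genes tested) and 2 without A120 and A126, and from 1 to 2 with each library left out. There IFI16 was also called higher with the same total, the same upper quartile and quantile normalization, and MAVS with the same total. For palbociclib against DMSO 1 was higher, against 0 with the same total and 0 with quantile normalization. TREX1 was also called lower in that comparison with the same total. For ruxolitinib against DMSO 0 were higher, against 1 with the same upper quartile, with only the 2 groups, with DESeq2 and without A120 and A126, and from 0 to 1 with each library left out. TLR3, tested only through its DMSO libraries, was also called lower there with edgeR, DESeq2, a pseudocount of 5 and only the 2 groups. For palbociclib against ruxolitinib 1 was higher and 1 lower, against 0 and 3 with the same total, 0 and 0 at an adjusted p under 0.01, 3 and 0 without A120 and A126, and 1 to 2 and 0 to 1 with each library left out. For palbociclib against proliferating cells 3 were higher and 4 lower, against 1 and 2 with only the 2 groups and at an adjusted p under 0.01, 2 lower with the same upper quartile, and 1 to 3 and 2 to 4 with each library left out. For ruxolitinib against proliferating cells 2 were higher, against 1 with a mean of at least 50 and 4 with the same total or upper quartile, and 3 with edgeR, DESeq2 or no trend. There 3 were lower, and from 2 to 4 over the alternatives.

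Signs turned for small differences. Between DMSO and proliferating cells TREX1 was at 0.163 (same total), 0.0934 (upper quartile), 0.00743 (edgeR) and 0.00772 (DESeq2), and from -0.129 to 0.0434 with each library left out. MAVS was at 0.117, 0.0463 and 0.0536 with the same total, upper quartile and quantiles. With palbociclib against DMSO TREX1 was at 0.0505 with quantile normalization. Between the inhibitors, the same total gave -0.0295 for IFI16, -0.157 for EIF2AK2 and -0.130 for MAVS, and the upper quartile gave -0.00343 for EIF2AK2. Quantile normalization gave 0.138 for TREX1, -0.0794 for MAVS, 0.217 for IFIH1 and 0.203 for DHX58, and ADAR was at 0.0347 without A120 and A126. With each library left out, that difference ran from -0.0917 to 0.0347 for ADAR, -0.0903 to 0.218 for EIF2AK2, -0.104 to 0.0618 for TREX1 and -0.246 to 0.0086 for IFIH1. For palbociclib against proliferating cells EIF2AK2 was at 0.0247 (upper quartile) and 0.0315 (quantiles) and TLR3 at -0.193 (quantiles), and with each library left out they ran from -0.238 to 0.0701 and from -0.241 to 0.503. For ruxolitinib against proliferating cells ADAR was at 0.0492, 0.0207 and 0.0809 and EIF2AK2 at 0.0565, 0.0281 and 0.0298 with the same total, upper quartile and quantiles. There TREX1 was at 0.00885 (same total) and TLR3 at -0.0125 (quantiles). Depth limits DHX58 in proliferating cells (3 to 10 reads) and TLR3 (3 to 27 reads over all libraries).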

Other observations

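Among the sensors too scarce to test, TLR9, an endosomal DNA sensor, had 0 to 1 reads in proliferating libraries, 7 to 15 with DMSO, 4 to 5 with palbociclib and 11 to 21 with ruxolitinib. AIM2 and ZBP1, cytosolic sensors of DNA and of left-handed nucleic acid, had at most 2 reads in any library, and TLR7 at most 5. NLRC5 and PNPT1, which are brakes or regulators of RNA and DNA sensing, were named after their values were seen. NLRC5 was at 475.0 ± 14.3 normalized counts in proliferating cells (SD, n = 3), 516.5 ± 20.8 with DMSO, 276.5 ± 19.7 with palbociclib and 276.6 ± 6.02 with ruxolitinib. PNPT1 was at 919.6 ± 60.5, 823.9 ± 79.7, 534.9 ± 20.0 and 477.9 ± 12.5. Both, like IFI16, were not called after irradiation on the authors' scaling (limma adjusted p 0.152 and 0.0649) and were lower with each inhibitor than with DMSO. IFI16 was called higher after irradiation under the other scalings, and NLRC5 and PNPT1 were not refitted under them.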
